A study of Mus musculus with 4 samples.

Results

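RNA of the genes that make cholesterol and fatty acids was compared between mouse embryonic stem cells that kept Exosc3 and cells that had lost it. Exosc3 is a cap subunit of the RNA exosome, a complex that trims and degrades many RNAs from their 3′ end. The gene set was a list of 36 names, chosen with earlier results of these data known. Of these genes, 28 had a row among the 22883 rows of the deposited table. The set was divided by function into a sterol branch (16 genes with a row), a fatty acid branch (9 genes) and regulators of both (3 genes). Fdft1, Tm7sf2, Dhcr7, Scd1, Elovl1, Acsl3, Srebf1 and Srebf2 had no row under these symbols and were not analysed here. All libraries came from V6.5 embryonic stem cell clones with a conditional knockout of Exosc3, grown without feeders and maintained in 0.1 µg/ml doxycycline. Exosc3-present cells stayed in doxycycline, and Exosc3-depleted cells were taken off it for 3 days. There were 2 libraries per group, 4 in all. Doxycycline and Exosc3 differed together, so their parts cannot be told apart, and no library from cells without the conditional allele was used here. How many clones were used, and whether replicates were separate cultures, is not given in the sources used here. The p-values therefore measure only the spread between these samples, which may be technical.

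Cholesterol is built from cytosolic acetyl-CoA. The mevalonate steps make isoprenoid units, squalene synthase joins them into squalene, and a long series of enzymes in the endoplasmic reticulum turns squalene into cholesterol. Fatty acid synthesis starts from the same acetyl-CoA, which ATP citrate lyase supplies, and proceeds through malonyl-CoA to palmitate, which is then elongated and desaturated. Both branches are known to be controlled by the SREBP transcription factors. SCAP escorts SREBP from the endoplasmic reticulum to the Golgi, where proteases release the active factor, while the INSIG proteins hold the SCAP and SREBP complex back when sterols are plentiful.

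Levels are given as FPKM, fragments scaled to the length of the gene model and to a total for the library. Whole fragments could be recovered from the spacing of the values, and the totals the libraries were scaled to were 60851774 and 55233386 in the Exosc3-present pair and 38095698 and 41968325 in the Exosc3-depleted pair. The median member had 2289, 2181, 515 and 778 fragments in these libraries, and the thinnest value, Hsd17b7 in Exosc3-depleted replicate 1, rested on 51. Exosc3 itself was at 24.2 and 23.2 FPKM in the Exosc3-present libraries against 0.635 and 0.691 in the Exosc3-depleted ones, as labelled. Changes are differences in log2(FPKM + 0.5), tested with limma over 9336 rows with a mean of at least 0.5 FPKM and Benjamini-Hochberg adjustment at 0.05. The median tested row was at log2 -0.27, and under other scalings it lay between -0.07 and 0.03, so changes are also given relative to it. Among embryonic stem cell markers, Pou5f1 was at 452 and 349.8 FPKM on average, while Zfp42 and Esrrb fell, and Nanog and Sox2 had no row. The 5 trophectoderm markers summed to 22.3 and 24.3 FPKM in the Exosc3-present libraries and 118.7 and 87.8 in the Exosc3-depleted ones. Krt8 and Krt18, which rose, held nearly all of this, and Cdx2 and Elf5 were under 0.5 FPKM. Eomes fell from 0.811 to 0.379 FPKM on average (adjusted p = 0.0426). This call was lost without a filter on low values (limma adjusted p = 0.0732) and without limma's intensity trend (0.0574). It was also lost under the other scalings (0.0662 to 0.182), quantile normalization apart. With Exosc3-present replicate 1 or 2 left out, the change of Eomes was log2 -0.74 or -0.40. The 5 primitive endoderm markers summed to between 1.92 and 2.16 FPKM, then 4.55 and 4.92, with Afp listed at 0 in all 4 libraries. Of the 4 tested, Gata4, Gata6 and Sox17 were called higher and Dab2 did not pass. Gata6 and Sox17, at 0.456 and 0.229 FPKM on average in Exosc3-present cells, passed the filter on low values only through the Exosc3-depleted libraries. The 5 fibroblast markers summed to 3.48 and 3.36 FPKM, then to 1.38 and 0.979. Of the 2 tested, Thy1, which held most of the Exosc3-present sum, fell from 2.24 to 0.179 FPKM on average. Col1a1 went the other way, from 0.438 to 0.771 FPKM on average, and did not pass (log2 0.42). It reached the filter on low values only through the Exosc3-depleted libraries. Below that filter, Pdgfrb and Col3a1 were lower on average and Col1a2 was higher. The part of these shifts in the results below was not tested, and in bulk RNA fewer cells of a type and less RNA per cell cannot be told apart.

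Most genes of both branches fell in Exosc3-depleted cells. Of the 28 members, all of which passed the filter on low values, 20 were lower, 1 was higher and 7 did not pass. This is 71.4% lower, beside 30.1% of all tested rows called lower and 12.6% called higher. Because the members were chosen with earlier results of these data known, the gap between these shares is no test of the set. The median member changed by log2 -1.18, or -0.91 relative to the median row. Of 16 sterol genes 12 fell and 0 rose (0 also at an unadjusted p under 0.05 and with limma-voom on recovered fragments), with a median of log2 -1.21. Of 9 fatty acid genes 7 fell and 0 rose, with a median of -1.23. At an unadjusted p under 0.05, 1 fatty acid gene (Acsl4) was higher, and limma-voom called 0. The plot of levels by library shows genes that fell both among the most abundant, such as Fdps, and among the least abundant, such as Stard4.

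**Figure D1:**
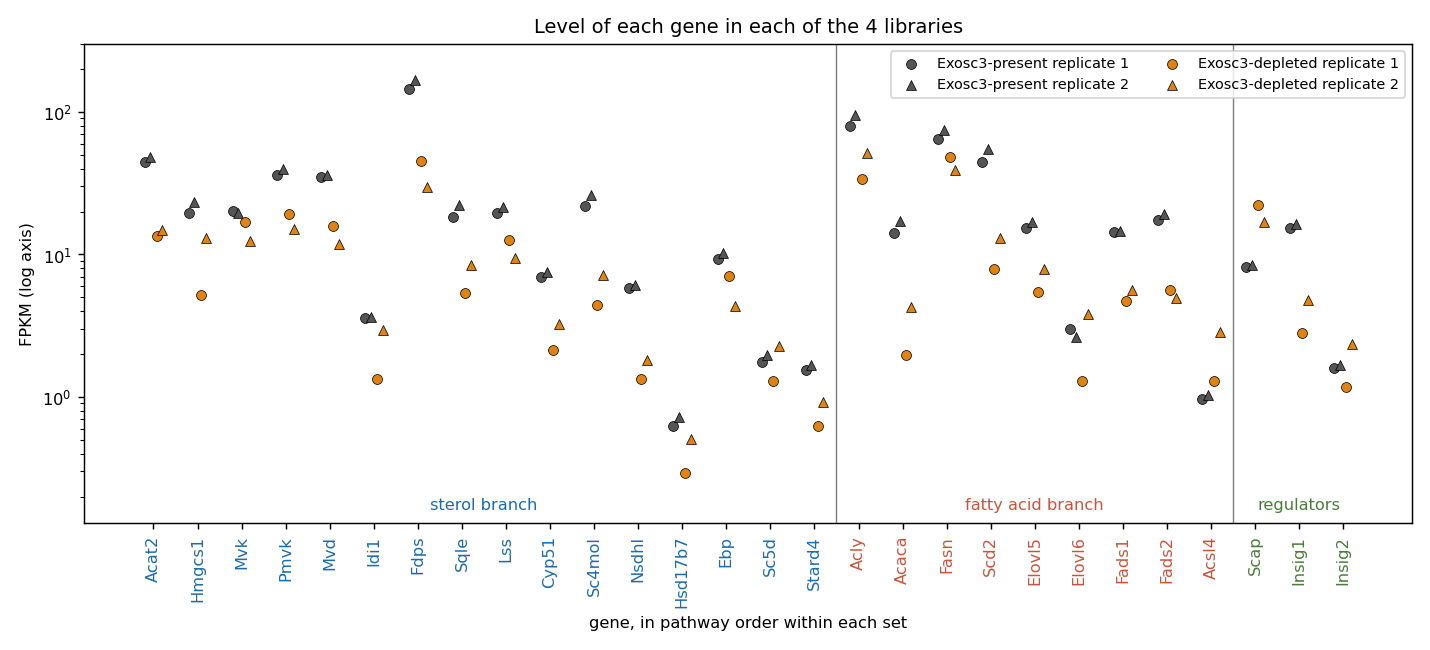
Level of the 28 genes in each library (FPKM, log axis), in pathway order within the sterol branch, the fatty acid branch and the regulators. Grey points are the Exosc3-present and orange points the Exosc3-depleted libraries, circles replicate 1 and triangles replicate 2; Fdps has the highest level (155.8 FPKM on average in Exosc3-present cells) and Hsd17b7 the lowest (0.673 FPKM).

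Other scalings gave fewer calls. Between 14 and 17 members were lower under the other scalings, when 14.3% to 19.8% of all rows were lower, and of all called rows 45.2% to 53.7% were higher in place of 29.6%. Of the 20 lower members 14 were called lower in all 18 fits run. The others, Hmgcs1, Lss, Ebp, Stard4, Acly and Fasn, lost their call in at least 1 fit. With 1 library left out, 16 or 15 members fell when it was the first or second of the Exosc3-present pair, and 21 or 25 when it was the first or second of the Exosc3-depleted pair. In the same fits 14.6%, 11.6%, 40.6% and 50.5% of all tested rows were lower. Each of these fits leaves a group with 1 library, which is assumed to vary like the other group, and the Exosc3-present pair varied less than the Exosc3-depleted pair (SD of the log2 difference 0.188 and 0.432). Values without an Exosc3-depleted library are therefore given below as values, with no call.

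The first steps of the sterol branch run from acetyl-CoA to farnesyl diphosphate, and 5 of their 7 genes fell. Acat2 encodes the cytosolic thiolase that joins acetyl-CoA units. It was at 44.4 and 47.9 FPKM in the Exosc3-present libraries and at 13.5 and 14.8 in the Exosc3-depleted ones, 3.26-fold lower (log2 -1.67, SE 0.17, adjusted p = 0.000644). The libraries of each pair lay close together and the groups did not overlap. Fdps, which makes farnesyl diphosphate, the branch point to sterols and to other isoprenoids, was the most abundant member. Its values were 145.1 and 166.5 FPKM in Exosc3-present cells and 45.5 and 29.8 in Exosc3-depleted cells, 4.14-fold lower (log2 -2.06, SE 0.23, adjusted p = 0.000904). Exosc3-depleted replicate 2 was the lowest of the 4 libraries for Fdps, and 0.975% of tested rows had a lower log2 change.

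Hmgcs1, the HMG-CoA synthase gene, was at 19.5 and 23.4 FPKM and then at 5.17 and 13.04, so the Exosc3-depleted libraries differed from each other by more, on the log2(FPKM + 0.5) scale, than for any other gene of the sterol branch. It fell by 1.32 on the log2 scale (SE 0.38, adjusted p = 0.0296), with changes of -0.69 without Exosc3-depleted replicate 1 and -1.95 without replicate 2. A second row of Hmgcs1, with lower values, changed by log2 -1.30. The call of the row used ended with 4 settings: no filter on low values (adjusted p = 0.0835), quantile normalization (0.0688), scaling without the 50 highest rows (0.155) and scaling to fragments within listed genes (0.0594). Mvd, which decarboxylates mevalonate diphosphate, fell by 1.35, and Pmvk, the phosphomevalonate kinase gene, by 1.13. Mvk, the kinase before Pmvk in the pathway, was at 20.3 and 19.5 FPKM against 16.9 and 12.4 (log2 -0.45, 95% interval -0.92 to 0.03, adjusted p = 0.118). Idi1, the isomerase that makes the activated isoprene unit, was at 3.59 and 3.64 FPKM against 1.34 and 2.97 (log2 -0.71, adjusted p = 0.101). Its 2 Exosc3-depleted libraries were unlike each other, and its change was log2 -0.25 in replicate 2 alone and -1.17 in replicate 1 alone, while that of Mvk was -0.66 in replicate 2 alone.

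From squalene to cholesterol, 6 of 8 genes with a row fell. Sc4mol (now Msmo1) encodes the oxidase that removes methyl groups at carbon 4 of the sterol ring together with Nsdhl and Hsd17b7. Its levels were 21.9 and 26.3 FPKM in Exosc3-present cells against 4.40 and 7.22 in Exosc3-depleted cells, 4.15-fold lower (log2 -1.99, SE 0.25, adjusted p = 0.0014). Nsdhl, the dehydrogenase of that step, went from 5.78 and 6.14 FPKM to 1.34 and 1.80 (log2 -1.65, SE 0.20, adjusted p = 0.00122). For both genes every Exosc3-depleted library lay far below the Exosc3-present pair. Hsd17b7, the reductase of that step, was the lowest gene of the set, at 0.625 and 0.720 FPKM against 0.293 and 0.511 (log2 -0.39, 95% interval -0.80 to 0.02, adjusted p = 0.113), where the added 0.5 compresses a change. Without Exosc3-depleted replicate 2 its change was log2 -0.56.

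Sqle, the squalene epoxidase gene and a rate-controlling step, was at 18.3 and 22.1 FPKM and then at 5.35 and 8.50, 2.92-fold lower (log2 -1.51, SE 0.25, adjusted p = 0.00363). Cyp51, the lanosterol demethylase gene, fell by 1.30 on the log2 scale, and Lss, which closes the rings of lanosterol, by 0.87. Ebp, a sterol isomerase gene, was at 9.26 and 10.3 FPKM against 7.09 and 4.35 (log2 -0.76, adjusted p = 0.045). Sc5d, which introduces a late double bond, was at 1.75 and 1.98 FPKM against 1.28 and 2.29, so that the groups overlapped (log2 -0.08, 95% interval -0.66 to 0.50). Stard4, a carrier of sterols between membranes, fell by 0.74. With Exosc3-present replicates 1 and 2 left out in turn, Lss (adjusted p = 0.0824 and 0.159), Ebp (0.158 and 0.278) and Stard4 (0.0998 and 0.163) missed the threshold, as did Lss and Ebp under each of the 4 other scalings. Ebp also missed it without a filter on low values (0.0882) and with limma-voom (0.0504), and Stard4 with scaling without the 50 highest rows (0.110). Without Exosc3-depleted replicate 2 the change of Ebp was log2 -0.44 and that of Sc5d -0.40.

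The fatty acid branch fell at its entry and at its desaturases. Acaca encodes acetyl-CoA carboxylase 1, which makes malonyl-CoA in the committed step. It was at 14.1 and 17.1 FPKM in Exosc3-present cells against 1.98 and 4.26 in Exosc3-depleted cells, 4.99-fold lower (log2 -2.22, SE 0.31, adjusted p = 0.00212). Acly, the source of cytosolic acetyl-CoA for both branches, was at 80.0 and 95.8 FPKM against 33.6 and 51.9 and fell by 1.06 (adjusted p = 0.0118). Fasn, the fatty acid synthase gene that acts directly after Acaca, was at 64.4 and 75.0 FPKM against 48.6 and 39.4, 1.59-fold lower (log2 -0.66, adjusted p = 0.0265). The point estimates of Acaca and Fasn, which follow each other in the pathway, thus lay far apart, with 95% intervals of -2.96 to -1.48 and -1.10 to -0.22 that did not overlap. Fasn missed the threshold when Exosc3-present replicate 1 (adjusted p = 0.116) or 2 (0.313) was left out and under each of the 4 other scalings, and Acly missed it when Exosc3-present replicate 2 was left out (0.0551), with quantile normalization (0.0804) or with scaling without the 50 highest rows (0.0971).

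Scd2, a stearoyl-CoA desaturase gene that places the first double bond in saturated fatty acids, was at 44.6 and 54.8 FPKM against 7.96 and 13.1, 4.72-fold lower (log2 -2.22, SE 0.26, adjusted p = 0.00105). Only 0.675% of tested rows had a lower log2 change than Scd2. Fads2, the delta-6 desaturase gene of polyunsaturated fatty acid synthesis, was at 17.3 and 19.4 FPKM against 5.67 and 4.93 (log2 -1.70, SE 0.18, adjusted p = 0.000811). Fads1, the delta-5 desaturase gene beside it in the pathway, was at 14.3 and 14.7 FPKM against 4.74 and 5.59 (log2 -1.41, SE 0.18, adjusted p = 0.00149). In all 3 desaturase genes both Exosc3-depleted libraries lay well below the Exosc3-present pair. Elovl5, an elongase gene of polyunsaturated chains, was at 15.4 and 16.8 FPKM against 5.43 and 7.93 (log2 -1.23, SE 0.22, adjusted p = 0.00511).

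Elovl6 and Acsl4 did not pass. Elovl6, the elongase gene that extends palmitate, was at 2.99 and 2.63 FPKM in Exosc3-present cells and at 1.30 and 3.83 in Exosc3-depleted cells, which lay on either side of the controls (log2 -0.25, 95% interval -1.16 to 0.67). Its change was log2 0.39 without Exosc3-depleted replicate 1 and -0.88 without replicate 2. Acsl4, which attaches coenzyme A to arachidonate and related fatty acids, was at 0.968 and 1.03 FPKM against 1.29 and 2.88 (log2 0.72, adjusted p = 0.0921). It was called higher with median-of-ratios scaling (0.89) and with quantile normalization (0.81), and its change was 1.17 without Exosc3-depleted replicate 1 and 0.26 without replicate 2.

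**Figure D2:**
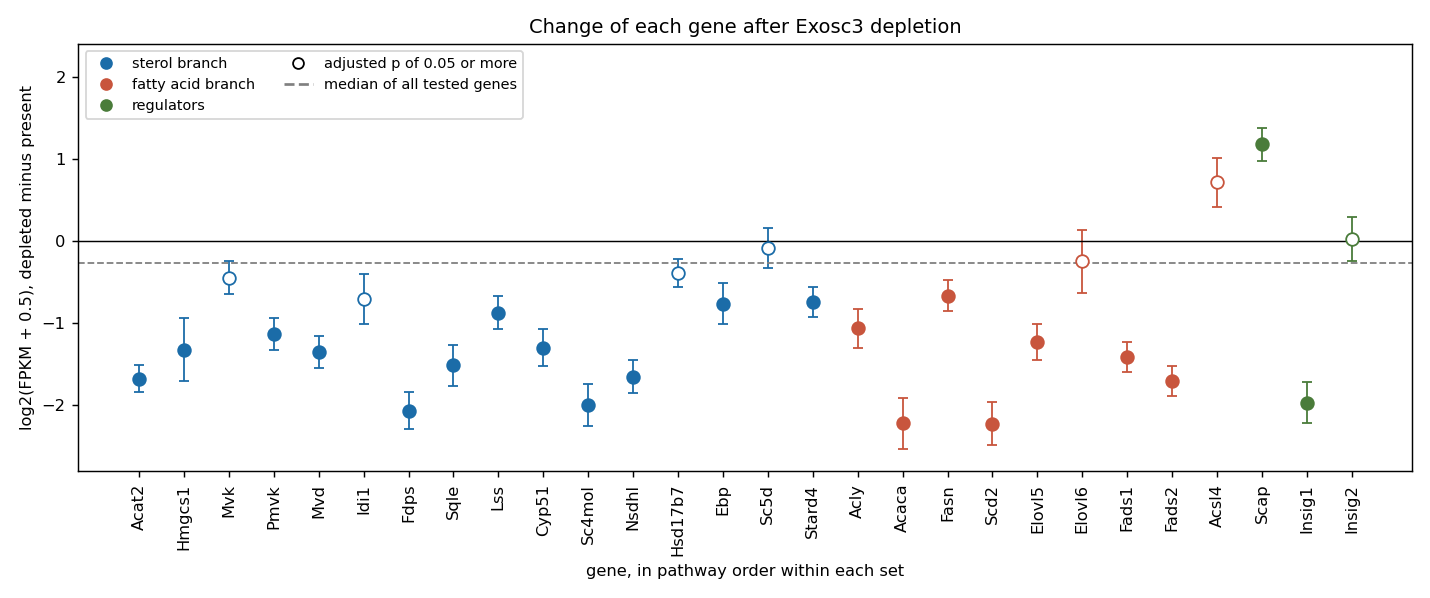
Change of each gene as log2(FPKM + 0.5) in Exosc3-depleted minus Exosc3-present libraries, with the standard error from limma as bars; filled points had an adjusted p under 0.05. The dashed line marks the median of all tested rows (-0.27), and all filled points of both branches lie between -0.66 and -2.22. Of all filled points only that of Scap, a regulator, lies above 0.

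The branches did not separate from each other by the size of the fall. Summed over its genes, the sterol branch was at 389.9 and 435.3 FPKM in the Exosc3-present libraries and at 152.8 and 138.1 in the Exosc3-depleted ones. The fatty acid branch summed to 254.0 and 297.2 FPKM, then to 110.6 and 133.8. A few abundant genes held much of these sums. In the Exosc3-present libraries Fdps was at 145.1 and 166.5 FPKM, Acly at 80.0 and 95.8, and Fasn at 64.4 and 75.0. Against the mean of the Exosc3-present pair, the median sterol gene changed by log2 -1.16 in Exosc3-depleted replicate 1 and by -1.08 in replicate 2, and the median fatty acid gene by -1.48 and -0.98. The sterol median less the fatty acid median was therefore 0.33 in 1 library and -0.10 in the other, a mean of 0.11 ± 0.30 (SD, n = 2). The order of the branches differed between the libraries, and the difference was smaller than its spread.

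The regulators moved in different directions. Scap, the escort of SREBP, was the 1 member that rose: it was at 8.23 and 8.38 FPKM in Exosc3-present cells and at 22.3 and 16.9 in Exosc3-depleted cells, 2.36-fold higher (log2 1.18, SE 0.20, adjusted p = 0.00395). Both Exosc3-depleted libraries lay above both controls, and the log2 change lay between 0.983 and 1.505 in the 18 fits. Exons of Scap overlap exons of a gene on the opposite strand, and whether the counting used strand is not given. Insig1, a retention factor of the SCAP and SREBP complex and itself a well-known SREBP target, was at 15.3 and 16.3 FPKM against 2.81 and 4.76, 4.17-fold lower (log2 -1.97, SE 0.25, adjusted p = 0.00141). Its paralogue Insig2 was at 1.61 and 1.68 FPKM against 1.17 and 2.35, with the Exosc3-depleted libraries on either side of the controls (log2 0.02, SE 0.27, adjusted p = 0.946). The 95% intervals of Insig1 (-2.56 to -1.37) and Insig2 (-0.61 to 0.66) did not overlap. The change of Insig2 was log2 0.41 without Exosc3-depleted replicate 1 and -0.36 without replicate 2, so no direction can be given for it. In Exosc3-present cells Insig1 was the more abundant of the paralogues, and in Exosc3-depleted cells their levels were 3.78 ± 1.38 and 1.76 ± 0.84 FPKM (SD, n = 2).

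The promoters of these genes were read from RefSeq (GRCm38.p6), as the 250 bases before each annotated start, for 23 of the 28 genes, 1 of them through its newer symbol. The 20 bases after the start lay in an annotated transcript for 23 of 27 starts, so some starts may be wrongly placed. They were searched on both strands for 3 motifs: TCACNCCAC, a form of the sterol regulatory element bound by SREBP, CCAAT, the box bound by NF-Y, and CACGTG, the E-box. Overlapping matches were each counted, as in Fasn, where a CCAAT on each strand shares letters. A gene was counted if the stretch before any of its annotated starts held a match. CCAAT stood in 12 of 13 sterol genes (all but Acat2) and in 2 of 7 fatty acid genes (Fasn and Elovl5), beside 37.5% of all genes in the table. For Pmvk the match lay before 1 of 2 annotated starts. TCACNCCAC stood in 1 gene, Hmgcs1, beside 1.22% of all genes, and CACGTG in 5 genes beside 6.86%. These are matches of letters and show neither binding nor its absence. The stretches below, each 5′ to 3′ and ending just before the start, are those of a sterol gene that fell and holds both CCAAT and TCACNCCAC, a second that fell with CCAAT alone, the sterol gene with the most CCAAT matches, which did not pass, and the 2 regulators that moved in opposite directions. They were chosen after the values were seen, and capitals mark the motif matches.
Hmgcs1 (chr13:119690101-119690350, plus strand): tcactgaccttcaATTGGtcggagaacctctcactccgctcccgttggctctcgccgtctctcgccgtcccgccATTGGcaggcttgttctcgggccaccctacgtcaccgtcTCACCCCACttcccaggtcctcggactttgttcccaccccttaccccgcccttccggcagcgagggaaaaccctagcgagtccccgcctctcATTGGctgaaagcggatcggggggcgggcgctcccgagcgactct
Nsdhl (chrX:72918271-72918520, plus strand): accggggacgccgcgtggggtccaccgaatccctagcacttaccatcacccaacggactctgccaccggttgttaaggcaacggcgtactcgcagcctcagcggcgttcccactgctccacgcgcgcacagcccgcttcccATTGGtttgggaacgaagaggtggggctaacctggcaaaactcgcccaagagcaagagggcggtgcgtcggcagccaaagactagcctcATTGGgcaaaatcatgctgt
Mvk (chr5:114444019-114444268, plus strand): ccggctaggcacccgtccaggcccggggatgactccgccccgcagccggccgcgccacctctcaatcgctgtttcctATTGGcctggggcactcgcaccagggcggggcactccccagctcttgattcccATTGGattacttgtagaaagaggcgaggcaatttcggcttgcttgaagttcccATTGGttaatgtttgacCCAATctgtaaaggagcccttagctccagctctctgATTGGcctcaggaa
Insig1 (chr5:28071162-28071411, plus strand): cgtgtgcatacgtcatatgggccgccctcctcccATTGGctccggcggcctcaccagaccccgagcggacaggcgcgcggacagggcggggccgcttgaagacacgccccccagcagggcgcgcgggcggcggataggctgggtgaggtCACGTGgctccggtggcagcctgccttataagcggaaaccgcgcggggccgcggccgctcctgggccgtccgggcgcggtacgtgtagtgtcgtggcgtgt
Scap (chr9:110333038-110333287, plus strand): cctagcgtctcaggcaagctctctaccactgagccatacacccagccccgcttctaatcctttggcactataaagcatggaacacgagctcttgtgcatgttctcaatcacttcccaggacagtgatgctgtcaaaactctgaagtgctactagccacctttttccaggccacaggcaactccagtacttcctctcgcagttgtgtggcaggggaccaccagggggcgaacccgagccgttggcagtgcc

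Hmgcs1 holds 3 CCAAT matches in this window and Nsdhl 2, while Mvk, whose change of log2 -0.45 did not pass, holds 5. CCAAT stood in 11 of 15 lower genes with a promoter in the table, beside 16 of all 23 genes read, so it did not set the lower genes apart. It also stood in genes that did not pass: Mvk, Idi1, Hsd17b7, Sc5d and, before 1 of 3 annotated starts, Insig2. Insig1 has 1 CCAAT and 1 CACGTG match. The Scap stretch shown has no match, and a second annotated start of Scap has 1 CACGTG.

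The 2 Exosc3-depleted libraries disagreed on many of these genes, and the disagreement moved with the length of the gene model; the part of length in the results was not tested. Replicate 2 was above replicate 1 for 19 of 28 members, beside 57.6% of all tested rows. Of the 8 members with a recovered model length under 2000 bases, 7 were lower in replicate 2 (Sc4mol was not), and of the 20 longer ones 18 were higher (Scap and Fasn were not); the limit of 2000 bases was chosen after the values were seen. Across members, the difference between the libraries had a Spearman rho with length of 0.57 (n = 28), and across all tested rows 0.46 (n = 9336), where genes share the libraries and are not independent. The log2 change between groups had a rho with length of 0.25 across members and 0.02 across all tested rows. Genes such as Elovl6, Hmgcs1, Acaca, Idi1 and Acsl4 had wide errors, and genes such as Acat2, Fads1 and Fads2 narrow ones.

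**Figure D3:**
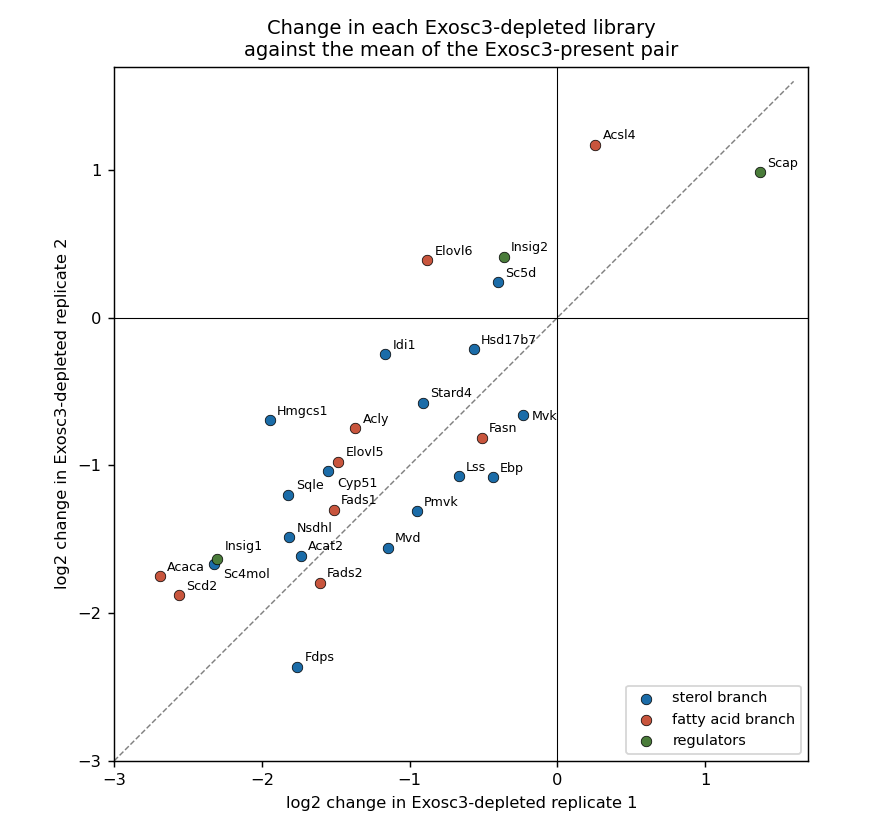
Log2 change of each gene in Exosc3-depleted replicate 1 (x axis) and replicate 2 (y axis), each against the mean of the Exosc3-present pair on the log2(FPKM + 0.5) scale; the dashed line marks equal changes. Most genes lie below 0 in both libraries, while Elovl6, Insig2 and Sc5d are below 0 in replicate 1 and above 0 in replicate 2.

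**Figure D4:**
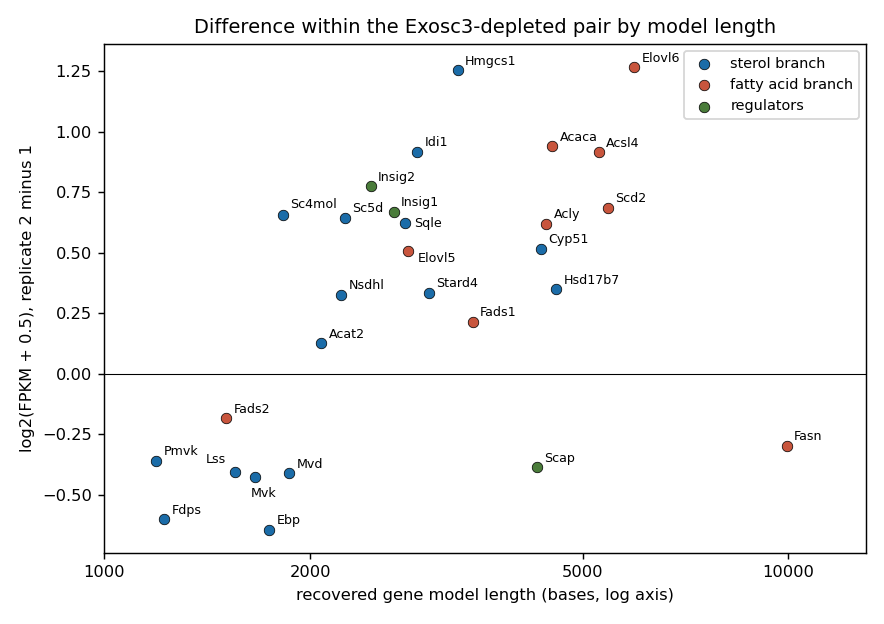
Difference between the Exosc3-depleted libraries (replicate 2 minus replicate 1, log2(FPKM + 0.5)) against the recovered gene model length in bases (log axis) for the 28 genes. Of the 8 genes under 2000 bases 7 lie below 0, and of the 20 longer ones 18 lie above 0.

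Other genes of the same pathways were read from 3 further lists, beside 30.1% of all tested rows called lower. Of 12 tested further sterol genes 5 fell (41.7%) and 1 rose, with a median of log2 -0.60. Apoe, a lipoprotein component, fell from 459.5 ± 31.0 to 171.4 ± 34.9 FPKM (SD, n = 2; log2 -1.43, adjusted p = 0.00162). Npc2, a lysosomal sterol carrier (log2 -1.19), and Tmem97 (-0.93) also fell, both named after their values were seen. Tmem97 lost its call when Exosc3-present replicate 1 (adjusted p = 0.0768) or 2 (0.0625) was left out and with median-of-ratios scaling (0.0504). Abca1, which exports cholesterol and was named after its value was seen, was the 1 that rose, from 0.428 and 0.402 FPKM to 1.26 and 2.50 (log2 1.33, adjusted p = 0.00684). It passed the filter on low values only through the Exosc3-depleted libraries, so it is no support for a direction of the list, and its change was between log2 0.95 and 2.10 in the fits that tested it.

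Of 6 tested genes that process SREBP or degrade its partners, 1 fell (16.7%) and 0 rose, and 1 was higher at an unadjusted p under 0.05 (Faf2). The gene that fell was Mbtps1, the first protease that cleaves SREBP, at 41.4 and 48.1 FPKM against 27.6 and 31.2 (log2 -0.60, adjusted p = 0.0317). It missed the threshold when Exosc3-present replicate 1 (adjusted p = 0.178) or 2 (0.406) was left out, and under the 4 other scalings. Mbtps2, the second protease gene, was at 0.968 ± 0.008 and 0.726 ± 0.315 FPKM (log2 -0.28, and -0.55 without Exosc3-depleted replicate 2). Faf2, a factor in the degradation of INSIG1, was at 7.47 ± 0.35 and 11.3 ± 2.6 FPKM (log2 0.55, adjusted p = 0.0752), and it was called higher under the 4 other scalings.

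Of 18 tested further fatty acid and glycerolipid genes 10 fell (55.6%) and 1 rose, with a median of log2 -0.57. Acsl1, a long-chain acyl-CoA synthetase gene, was at 6.43 and 7.14 FPKM against 1.32 and 2.24 (log2 -1.71, adjusted p = 0.00213). Scd3, a desaturase gene related to Scd2 with which reads could be shared, was at 3.51 and 3.62 FPKM against 0.696 and 1.26 (log2 -1.48, adjusted p = 0.00285). Slc25a1, the mitochondrial carrier that exports citrate for Acly, was at 44.9 and 45.0 FPKM against 23.9 and 21.1 (log2 -0.98, adjusted p = 0.00414; 0.0528 without Exosc3-present replicate 2). The 1 gene that rose, Lpin1, a phosphatidate phosphatase gene named after its value was seen, had a log2 change of 0.81, which passed neither without filter (adjusted p = 0.0769) nor with Exosc3-present replicate 1 (0.290) or 2 (0.120) left out. Without Exosc3-depleted replicate 2 its change was log2 0.52. In the annotation of GRCm38, exons of 6 members (Cyp51, Elovl6, Hmgcs1, Idi1, Lss and Scap) overlap exons of a gene on the opposite strand. The libraries were stranded, but whether the counting used strand is not given in the sources used here, so reads of such pairs may be mixed. Exons of Fdps and Scd2 overlap a gene on the same strand.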

How the data were processed

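Stranded libraries were made from total RNA depleted of ribosomal RNA and sequenced as paired ends, per the labels' protocols. The authors deposited 1 table of FPKM values with 1 column per library. The submitters' processing notes list mm9 as the build and, with neither version nor role, edgeR, STAR, Bowtie2, bedtools and Picard. Which of them produced the FPKM values is not given in the sources used here. The totals used for scaling count fragments outside the listed genes too: 49.7% and 51.8% of the total lay in listed genes in the Exosc3-present libraries, and 42.4% and 44.0% in the Exosc3-depleted ones, so Exosc3-depleted FPKM values are lower than on a scale of fragments in listed genes.

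Log2(FPKM + 0.5) was fitted with limma 3.58.1 (R 4.3.3, intensity trend, no covariate, 2 residual and 4.98 prior degrees of freedom) over all 9336 rows whose mean FPKM reached 0.5. Tests were two-sided, and p-values were adjusted over those rows (Benjamini-Hochberg). Folds are ratios of mean FPKM, and 95% intervals are limma's, unadjusted. A symbol with several rows was represented by its highest row.

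Whole fragments and the shortest fitting length were recovered for all 15471 rows above 0 (tolerance 0.004 of a fragment); true lengths and counts may be whole multiples. The fit and the recovery were tested on simulated data. For the fit, all 4 libraries were drawn with the same spread beyond counting. The pairs here differed in spread (SD of the log2 difference 0.188 and 0.432), so that simulation does not test the calls under such a difference. Values in every library are given for the 5 largest changes per branch that passed without overlap, the regulators and paralogues, other members by shorter statistics, and for other lists the 3 genes with the smallest p. Some genes of the other lists are not reported here by name. The members and lists were chosen with earlier results of these data known.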

Additional observations from a re-analysis of the deposited data

How the results depend on the processing

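With only 2 libraries per group, a miss of the threshold does not show a lack of change, and Exosc3-depleted libraries were both shallower and less alike (SD of the log2 difference within the pair 0.432, against 0.188). Of 471 values of members under alternatives, 422 kept direction and side of the threshold, 30 values of 6 genes lost the call, 11 of 7 genes gained it and 8 of 3 genes changed sign. These counts include the fits without an Exosc3-depleted library, whose calls are not relied on. Mvk, Hsd17b7, Sc5d, Elovl6 and Insig2 gained no call in any fit that kept all 4 libraries. Sc5d changed sign with median-of-ratios scaling (0.10), quantile normalization (0.047), scaling without the 50 highest rows (0.19) and scaling to fragments within listed genes (0.10, an alternative chosen after seeing the data). With 1 library left out Sc5d ranged from -0.40 to 0.24. Elovl6 changed sign without the 50 highest rows (0.041) and ranged from -0.88 to 0.39, and Insig2 from -0.36 to 0.41; Pou5f1, a marker, was at 0.111 with quantile normalization; the cause was not tested. The number of members called higher was 2 in place of 1, and of fatty acid genes 1 in place of 0, with median-of-ratios scaling, with quantile normalization and with the replicate number as a block; it was also 2 members at an adjusted p under 0.1. With the regulators added to the branches 1 sterol gene was higher (Scap, by construction). With 1 library left out the branch difference ranged from -0.10 to 0.33. The alternatives that kept all 4 libraries left the counts lower within 1.5 times (14 to 21 members). Replicate numbers are shared by the labels but not said to mark a pairing: deviations of same-numbered libraries correlated at 0.244, and the replicate block called 21 members lower (Idi1 among them, adjusted p = 0.00355), Acsl4 (0.00226) and Faf2 (0.0242) higher, with 3468 rows lower and 1431 higher in all, against 2806 and 1177. Over all rows the number lower was 1330 to 1848 under other scalings. Variance models, limma-voom and the block do not change the levels behind the branch difference, so they give it no value of their own.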

Other observations

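Genes of fatty acid oxidation, the pathway that breaks down what the fatty acid branch makes, were measured in the same libraries. Of 11 tested genes 3 fell and 1 rose. The share that fell, 27.3%, was near the 30.1% of all tested rows called lower, and the median was log2 -0.52, beside -0.27 for all tested rows. Cpt1a, which admits long-chain fatty acids to mitochondria, fell from 17.1 ± 2.6 to 4.04 ± 1.05 FPKM (SD, n = 2; log2 -1.97, limma adjusted p = 0.00109). Acaa2, the mitochondrial thiolase gene, fell from 14.6 ± 0.9 to 5.01 ± 0.31 FPKM (log2 -1.45, adjusted p = 0.00127), and Acads, the short-chain dehydrogenase gene, named after its value was seen, by 0.98 (adjusted p = 0.0637 when Exosc3-present replicate 2 was left out). Etfdh, which passes electrons from these dehydrogenases to ubiquinone, rose from 3.57 ± 0.48 to 9.46 ± 2.38 FPKM (log2 1.27, adjusted p = 0.00517).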
